A study of Mus musculus with 41 samples.

Results

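Epidermal stem cells of mice fed a high fat diet were compared between ZT12 and ZT16, with 4 arrays at each time out of the 41 arrays of the series. Zeitgeber time (ZT) is counted in hours from lights on, so these times fall at dusk and in the early night under the usual light schedule. The arrays were chosen by the diet and time point in their titles, and all 17097 genes with a probe set of their own were tested. All mice were wild type C57B6/J females, 15 weeks old, with free access to their diet for 7 weeks from 8 weeks of age. The same 4 h step in mice on the matching control diet, with 3 arrays at ZT12 and 4 at ZT16, served for comparison. The design gives 4 mice per diet group killed on each day, all of 1 time point, so time point and collection day coincide and cannot be told apart. The design gives 4 mice per time point and diet, but the labels do not tie each array to 1 mouse, so each p-value reflects the spread from array to array. The tissue is labelled epidermis, and the way the stem cells were isolated was not stated in the sources used.

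The circadian clock is a feedback loop in which the activators CLOCK and BMAL1 bind E-boxes and switch on genes for their own repressors, the PER and CRY proteins. A second arm, with ROR activators and REV-ERB repressors, sets the daily course of Arntl and Nfil3, and the PAR bZIP factors DBP, TEF and HLF carry the rhythm to output genes. In mouse skin the clock is known to time cell division, metabolism and the response of stem cells to their surroundings. Dusk is also when corticosterone, the main glucocorticoid of mice, is high, and when nocturnal mice begin most of their feeding.

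From ZT12 to ZT16 on the high fat diet, 4132 genes changed at an adjusted p under 0.05 in limma, which is 24.2% of all genes tested. Of these, 1336 rose (7.81%) and 2796 fell (16.4%), and 6145 genes had an unadjusted p under 0.05. Most changes were small: the median size among called genes was 0.40 on the log2 scale, and 143 genes changed by 2-fold or more (94 up, 49 down). In 1236 genes (7.23%) all 4 ZT16 arrays lay above all 4 ZT12 arrays, and in 2517 (14.7%) all lay below. On the control diet the same step gave 421 called genes (2.46%), 258 higher (1.51%) and 163 lower (0.953%), with 2735 at an unadjusted p under 0.05. That count was 135, 64 and 178 without control ZT12 replicate 1, 2 or 3, and 201 and 125 without control ZT16 replicate 1 or 2. The ZT16 minus ZT12 difference itself differed between the diets in 1363 genes (7.97%), in 333 towards a higher value on the high fat diet (1.95%) and in 1030 towards a lower one (6.02%). That count was 759 and 818 without the second and the first ZT12 array of the control diet, and 900 without the second ZT16 array. In all, 149 genes were called on both diets, 131 of them in the same direction, which is 35.4% of the genes called on the control diet and 3.61% of those called on the high fat diet.

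On the second principal component over all 41 arrays, which held 16.5% of the variance, ZT12 on the high fat diet scored 20.4 ± 5.56 (SD, n = 4) and ZT16 scored 0.22 ± 3.34 (SD, n = 4). Control ZT8 lay farthest from 0, at -37.9 ± 6.76 (SD). The signal of the 3′ probe set of beta-actin minus that of its 5′ probe set, a measure of RNA quality and amplification, was -0.75 ± 0.05 at ZT12 and -0.64 ± 0.01 at ZT16 (SD, n = 4, log2). In the control arrays it was -0.73 ± 0.02 and -0.61 ± 0.06 (SD), and the same measure for Gapdh was -0.27 ± 0.03 and -0.31 ± 0.02 (SD) on the high fat diet. With the beta-actin measure as a covariate, 3369 genes were called on the high fat diet. Of the 20% of genes with the shortest genomic span, 4.89% rose and 23.0% fell, and of the 20% with the longest, 11.6% rose and 8.85% fell. The balance of rises and falls depended on centring: 32.3% of called genes rose as deposited, 51.5% with the median of the tested genes of each array subtracted, and 48.5% with arrays quantile normalized again. Under those 2 centrings 4017 and 3858 of all genes were called (4132 as deposited). Of 33 complex I genes 29 and 30 still fell (31 as deposited), and of 64 of the cytosolic ribosome 49 and 54 (60 as deposited). Of 33 immediate early genes 20 and 19 rose (17 as deposited), where the share of called genes that rose was also larger.

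Clock genes changed in both directions. Of 17 measured clock genes (of 19 listed), 6 rose and 4 fell, 58.8% against the 24.2% of all genes. Arntl, which encodes the activator BMAL1, read 5.56, 6.35, 5.05 and 6.35 on the 4 arrays of ZT12 and 7.64, 7.99, 7.97 and 7.12 on those of ZT16 (log2 values). Every ZT16 array lay above every ZT12 array, and the rise was 1.85 ± 0.28 (SE, log2, limma adjusted p = 2.12e-05). Nfil3, a bZIP repressor that competes with DBP for its sites, read 6.43, 6.06, 6.89 and 6.12 at ZT12 and 8.46, 8.72, 8.39 and 8.69 at ZT16. It rose by 2.19 ± 0.18 (adjusted p = 2.29e-09), and every ZT16 array lay above every ZT12 array. On the control diet Arntl and Nfil3 rose too, by 1.48 ± 0.31 and 1.40 ± 0.20. The second probe set of Arntl showed a difference of 0.08 (adjusted p = 0.705), so its rise rests on 1 probe set.

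Among the repressors, Cry1, Per2 and Bhlhe40 rose and Ciart fell. Per2 encodes a core inhibitor of CLOCK and BMAL1 and read 7.81, 7.63, 7.82 and 8.01 at ZT12 and 8.79, 8.84, 8.17 and 8.41 at ZT16. No arrays of the 2 times overlapped, and Per2 rose by 0.73 ± 0.13 (SE, adjusted p = 1.37e-04) and by 1.02 in its other probe set. On the control diet the difference was -0.16 ± 0.14, and the diets differed by 0.89 ± 0.19 (adjusted p = 0.00554). In the course over the day, Per2 had its highest mean at ZT12 on the control diet (8.48) and at ZT16 on the high fat diet (8.55). Cry1, a stronger and later repressor, rose by 0.76 ± 0.17 on the high fat diet and 0.77 ± 0.19 on the control diet. Ciart, which represses the CLOCK and BMAL1 pair, fell by 0.38 ± 0.10 (adjusted p = 0.00516) against -1.07 ± 0.11 on the control diet, a smaller fall on the high fat diet by 0.69 ± 0.15 (adjusted p = 0.00445). Per1 and Cry2 did not pass on the high fat diet, with differences of -0.01 and -0.09, while on the control diet they fell by 0.91 and 0.51 (adjusted p = 0.025 and 0.0243). The test of the difference between diets missed the threshold for both (adjusted p = 0.0601 and 0.115). Bhlhe40, a bHLH repressor that also answers to growth and stress signals, rose by 0.69 ± 0.17.

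The PAR bZIP output factors Dbp, Tef and Hlf all fell. Dbp, a direct target of CLOCK and BMAL1, read 9.31, 8.63, 9.04 and 9.49 at ZT12 and 7.91, 7.56, 7.58 and 8.11 at ZT16, with no overlap. It fell by 1.33 ± 0.17 (SE, adjusted p = 1.37e-06) and on the control diet by 1.00 ± 0.18. Tef fell by 0.40 ± 0.11 and Hlf by 0.23 ± 0.08. The Hlf call was lost without ZT12 replicate 1, 2 or 4 or ZT16 replicate 2 or 4, with adjusted p up to 0.114. Rora, the ROR activator measured here, rose by 0.56 ± 0.07 (adjusted p = 2.47e-06) and in 3 of its 4 other probe sets, and differed from the control diet by 0.42 ± 0.11 (adjusted p = 0.014, 0.0518 without control ZT12 replicate 1). Clock, Npas2, Per3, Nr1d2 and Bhlhe41 did not pass, with differences of 0.17, 0.13, -0.15, -0.18 and -0.10, although single other probe sets rose for Clock (0.45) and Npas2 (0.85) and fell for Per3 (-1.08).

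**Figure D1:**
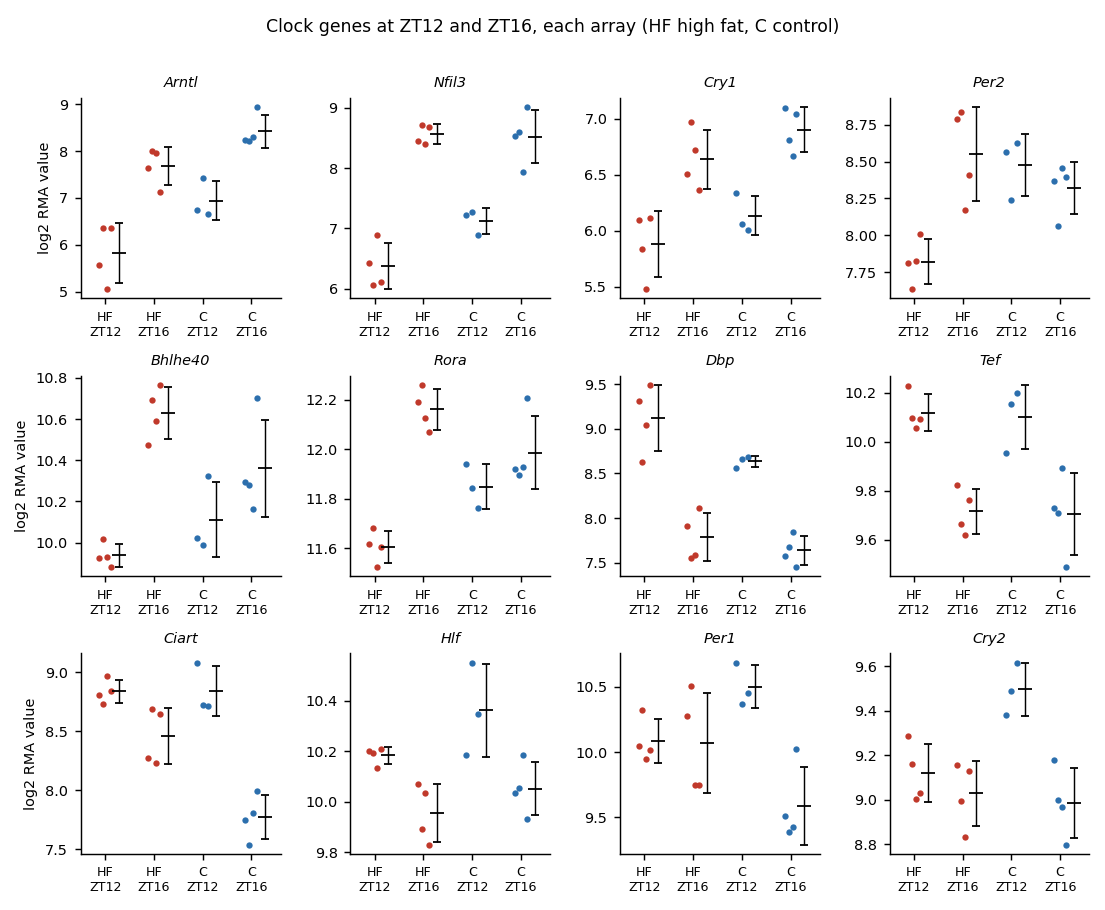
Log2 value of 12 clock genes on each array at ZT12 and ZT16, for the high fat diet (red, HF) and the control diet (blue, C), with the mean and SD in black. Arntl and Nfil3 are higher and Dbp lower at ZT16 on both diets. Per2 passed on the high fat diet, and Per1 passed on the control diet.

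Promoter sequences are shown for clock genes that moved and hold a clock element, since these are the letters through which the loop is known to act. They were taken from the RefSeq table of mouse build GRCm38.p6, which held a promoter for 15 of the 17 clock genes, and were searched on both strands in the 250 bases before each start. The E-box CACGTG was found in 5 of the 15 (33.3%), against 8.75% of 13605 tested genes with a promoter and 6.02% of 32851 promoters. In the other gene lists the share ran from 0% (bulge genes, among others) to 55.6% (translation factors). Capitals mark the motif and the rest is in lower case, 5′ to 3′ along the gene. Ciart (minus strand, chr3:95882229-95882384) holds 3 E-boxes, Cry1 (minus strand, chr10:85185069-85185154) holds 1, and Tef (plus strand) holds 1 in each of 2 promoters, at chr15:81802506-81802591 and chr15:81811236-81811321.
Ciart: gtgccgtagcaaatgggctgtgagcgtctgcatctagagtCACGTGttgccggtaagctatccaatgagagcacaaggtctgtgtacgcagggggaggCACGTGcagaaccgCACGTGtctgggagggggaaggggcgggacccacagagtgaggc
Cry1: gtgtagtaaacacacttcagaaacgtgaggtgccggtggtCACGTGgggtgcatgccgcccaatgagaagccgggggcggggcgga
Tef upstream start: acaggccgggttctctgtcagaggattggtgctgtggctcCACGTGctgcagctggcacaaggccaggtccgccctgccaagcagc
Tef downstream start: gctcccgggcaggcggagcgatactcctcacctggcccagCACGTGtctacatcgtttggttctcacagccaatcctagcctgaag
The element TAGGTCA, bound by ROR and REV-ERB receptors, was found in 1 of the 15 promoters (6.67%), that of Nfil3, against 2.25% of the tested genes and 2.23% of all promoters. It lies on the opposite strand 12 bases before the start and reads as TGACCTA in the gene's direction (minus strand, chr13:52981040-52981091).
Nfil3: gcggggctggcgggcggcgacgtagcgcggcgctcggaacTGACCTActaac
The genes with an E-box here did not move one way: Cry1 rose by 0.76 while Ciart and Tef fell by 0.38 and 0.40. Per1 and Bhlhe41, which also hold an E-box, did not pass on the high fat diet. A match is a description of the letters and not evidence of binding.

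Glucocorticoid-induced genes rose at ZT16 on the high fat diet. Of 9 measured (of 10 listed), 5 rose and none fell (55.6%, against 7.81% of all genes that rose). The median difference was 0.38 against -0.04 over all genes. On the control diet none of the 9 rose and 2 fell, with a median of -0.39. Of all genes 1.51% rose and 0.953% fell there. Between the diets 6 of the 9 (66.7%) differed, all towards higher values on the high fat diet, against 1.95% of all genes. Fkbp5, which encodes a co-chaperone of the glucocorticoid receptor and is among its most used reporter genes, read 7.30, 8.47, 8.21 and 7.21 at ZT12 and 9.26, 9.39, 8.95 and 8.87 at ZT16. The groups did not overlap although the ZT12 arrays spread widely, and the rise was 1.32 ± 0.28 (SE, adjusted p = 8.17e-04). Among the control arrays Fkbp5 read 9.66, 8.49 and 8.77 at ZT12 and 7.64, 7.56, 9.13 and 8.69 at ZT16, with overlap, and the diets differed by 2.03 ± 0.41 (adjusted p = 0.00338). Zbtb16, a zinc finger transcription factor gene, read 9.86, 10.28, 9.38 and 10.13 and then 11.31, 11.32, 10.59 and 11.16, a rise of 1.18 ± 0.19 (adjusted p = 4.71e-05).

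Zbtb16 also differed between the diets, by 1.80 ± 0.28 (adjusted p = 4.70e-04). Over the 6 times of day, Fkbp5 and Zbtb16 had their highest means at ZT12 on the control diet (8.97 and 11.28) and at ZT16 on the high fat diet (9.12 and 11.09). Tsc22d3, which encodes the anti-inflammatory protein GILZ, rose by 0.58 ± 0.20 on the high fat diet and fell by 0.82 on the control diet, a difference of 1.40 ± 0.29 (adjusted p = 0.00445). Its rise on the high fat diet was lost without ZT12 replicate 4 or ZT16 replicate 1 or 2 (adjusted p up to 0.14), and another probe set fell by 0.40. Errfi1, an inhibitor of the EGF receptor, rose by 0.98 ± 0.25, and the kinase gene Sgk1 by 0.38 ± 0.11 (adjusted p = 0.057 without ZT12 replicate 1). The metallothionein gene Mt1 and the transcription factor gene Klf9 differed by 0.14 and 0.21 and did not pass, although another probe set of Klf9 rose by 0.71. Per1, itself a glucocorticoid target, did not pass, as given above.

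**Figure D2:**
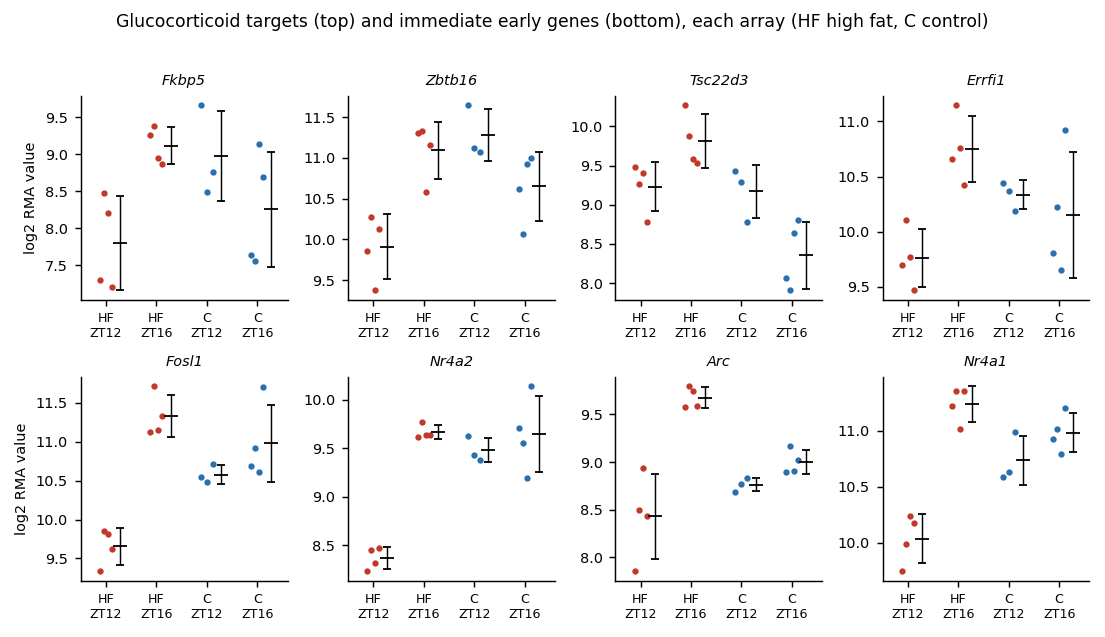
Log2 value on each array of 4 glucocorticoid targets (top row) and 4 immediate early genes (bottom row) at ZT12 and ZT16, for the high fat diet (red, HF) and the control diet (blue, C), with mean and SD in black. On the high fat diet all ZT16 arrays lie above all ZT12 arrays in each of the 8 genes.

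Immediate early genes, which cells switch on within minutes of a growth factor, stress or neural signal, rose as well. Of 33 measured (of 35 listed), 17 rose and none fell (51.5%, against 7.81% of all genes that rose), with a median of 0.27. From the control diet 11 (33.3%) differed in the same direction, against 1.95% of all genes. Under the control diet 1 rose and none fell, where 1.51% of all genes rose. By family, 5 of 7 AP-1 genes, 4 of 7 zinc finger genes, 7 of 11 others and 1 of 4 phosphatase genes rose, and none of 4 YAP and SRF targets passed. Fosl1, which encodes the AP-1 subunit FRA1, read 9.33, 9.86, 9.81 and 9.62 at ZT12 and 11.13, 11.71, 11.16 and 11.33 at ZT16. It rose by 1.68 ± 0.25 (SE, adjusted p = 1.41e-05), and by 2.07 in its other probe set. The orphan nuclear receptor gene Nr4a2 read 8.23, 8.46, 8.31 and 8.47 and then 9.62, 9.77, 9.64 and 9.64, a rise of 1.30 ± 0.15 with little spread at either time (adjusted p = 5.51e-07). Other probe sets of Nr4a2 showed 1.86, 2.68, -0.05 and -0.02.

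Its relatives Nr4a1 and Nr4a3 rose by 1.20 ± 0.18 and 0.99 ± 0.23. Arc, known for its part at synapses, rose by 1.25 ± 0.19, and Maff, a small MAF factor, by 1.18 ± 0.26. The diets differed for Nr4a2 by 1.13 ± 0.22 (adjusted p = 0.00272). For Nr4a1 the difference between diets was 0.96 ± 0.27 (adjusted p = 0.0242), and it was lost without high fat ZT12 replicate 1 or control ZT12 replicate 3 (up to 0.0734). Dusp1 and Klf4, which lie near the top of the array's scale, differed by -0.02 and 0.09 and did not pass (another Klf4 probe set rose by 0.19). The cyclic AMP response element TGACGTCA, bound by CREB, was found in 3 of 25 immediate early genes with a RefSeq promoter, against 2.52% of the tested genes and 1.55% of all promoters. Of those 3, Maff rose and Dusp1 and Btg2 (0.27) did not pass. The element is shown for Maff and for the glucocorticoid target Errfi1, which also rose, at chr15:79347451-79347519 and chr4:150854979-150855066 (GRCm38.p6, plus strand).
Maff: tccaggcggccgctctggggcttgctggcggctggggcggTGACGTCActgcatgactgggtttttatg
Errfi1: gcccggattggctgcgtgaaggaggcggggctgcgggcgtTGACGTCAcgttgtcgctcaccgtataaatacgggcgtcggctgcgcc
The element begins 29 bases before the start of Maff and 51 bases before that of Errfi1.

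The genes of the mitochondrial respiratory chain fell nearly as a whole. Complex I, the NADH dehydrogenase that feeds electrons into the chain, had 31 of its 33 measured subunit genes lower at ZT16 (93.9%, against 16.4% of all genes) and none higher, with a median of -0.63. In 31 of the 33 all ZT16 arrays lay below all ZT12 arrays, against 14.7% of all genes. Ndufb2, a small membrane subunit, read 10.74, 10.21, 10.43 and 10.28 at ZT12 and 9.37, 9.17, 9.28 and 8.94 at ZT16. It fell by 1.22 ± 0.15 (SE, adjusted p = 1.21e-06) and by 1.24 in its other probe set. Ndufs6 read 10.77, 10.59, 10.78 and 10.51 and then 9.76, 9.90, 9.85 and 9.89 and fell by 0.81 ± 0.08, without overlap. Ndufa7, Ndufa11, Ndufa6 and Ndufb4 fell by 0.95, 0.83, 0.80 and 0.79, although a dim second probe set of Ndufa11 rose by 0.25. The 2 that did not pass, Ndufs1 and Ndufab1, differed by -0.30 and -0.28, and another probe set of Ndufab1 fell by 0.41.

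Of 39 genes of complexes II to V, which pass electrons to oxygen and make ATP, 34 fell (87.2%) and none rose, with a median of -0.37. Cox8a, a subunit of cytochrome c oxidase, read 10.88, 10.47, 11.10 and 10.91 at ZT12 and 9.84, 9.88, 9.86 and 9.49 at ZT16 and fell by 1.07 ± 0.14 (SE, adjusted p = 1.86e-06). Uqcr10 of complex III fell by 0.94 ± 0.12, Sdhd and Sdhb of complex II by 0.96 and 0.75, and Atp5e of the ATP synthase by 0.77. Uqcrc1 and Atp5d differed by -0.08 and -0.12 and did not pass, although another probe set of Atp5d fell by 0.30. For the control diet none of the 72 respiratory genes passed in either direction, where 2.46% of all genes passed. Between the diets 48 of the 72 (66.7%) differed towards lower values on the high fat diet, against 6.02% of all genes. Of the 48, 25 were of complex I and 23 of complexes II to V. Fewer cells of a type and less RNA per cell cannot be told apart in these bulk samples.

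Ribosomal protein genes fell by smaller steps. Of 64 measured genes for the cytosolic ribosome, 60 fell and 1 rose (95.3% called, against 24.2% of all genes), with a median of -0.25. Their values lie near the top of the scale, with a median level of 11.8. In the large subunit 40 of 41 fell and in the small subunit 20 of 23. Rpl13 read 10.81, 10.63, 10.83 and 10.74 at ZT12 and 10.27, 10.34, 10.18 and 10.20 at ZT16 and fell by 0.51 ± 0.07 (SE, adjusted p = 9.67e-06). Rpl14 fell most, by 1.01 ± 0.17, and Rps19, the gene mutated in Diamond-Blackfan anaemia, by 0.60 ± 0.11. Rps15a rose by 0.35 ± 0.11, from a dim probe set, and the call was lost without ZT12 replicate 1 or ZT16 replicate 2 (adjusted p up to 0.106). Rpl31 and Rps20 differed by -0.08 and -0.06 and did not pass, although 2 other probe sets of Rpl31 fell by 0.12 and 0.37. In control mice no cytosolic ribosomal gene was called, where 2.46% of all genes were. Between the diets 44 of the 64 (68.8%) differed, all downwards on the high fat diet, against 6.02% of all genes.

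The mitochondrial ribosome makes the proteins encoded by mitochondrial DNA. It had 44 of 73 measured genes lower and none higher (60.3%, against 16.4% of all genes lower), with a median of -0.41. Mrps33 read 8.91, 9.32, 9.06 and 9.01 at ZT12 and 8.30, 8.21, 7.77 and 7.48 at ZT16, a fall of 1.14 ± 0.15 (SE, adjusted p = 2.37e-06). Mrpl44 and Mrpl40 fell by 1.07 ± 0.17 and 0.87 ± 0.17. Among the control arrays 2 of the 73 rose and none fell (2.74% called, against 2.46% of all genes). Between the diets 21 (28.8%) differed, all towards lower values on the high fat diet, against 6.02% of all genes.

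Genes of the proteasome and of the chaperonin CCT fell too. Of 30 proteasome genes, 24 fell and 1 rose (83.3% called, against 24.2% of all genes), with a median of -0.39. The falls included all 7 of the 20S beta ring, 6 of 7 of the alpha ring and all 5 measured 19S ATPases. Psmb5, the chymotrypsin-like catalytic subunit, read 10.42, 10.53, 10.35 and 10.39 at ZT12 and 9.38, 9.75, 9.90 and 9.69 at ZT16 and fell by 0.74 ± 0.11 (SE, adjusted p = 1.18e-05). Psma4 and Psmb1 fell by 0.65 ± 0.12 and 0.64 ± 0.11. Psma3 and Psmd6 differed by -0.09 and -0.17 and did not pass. Of the 8 subunits of the chaperonin CCT, which folds actin and tubulin, 6 fell (75.0%), led by Cct6a (-0.39) and Cct3 (-0.27). Under the control diet 1 proteasome gene rose and none fell, and no CCT gene passed, where 2.46% of all genes passed.

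**Figure D3:**
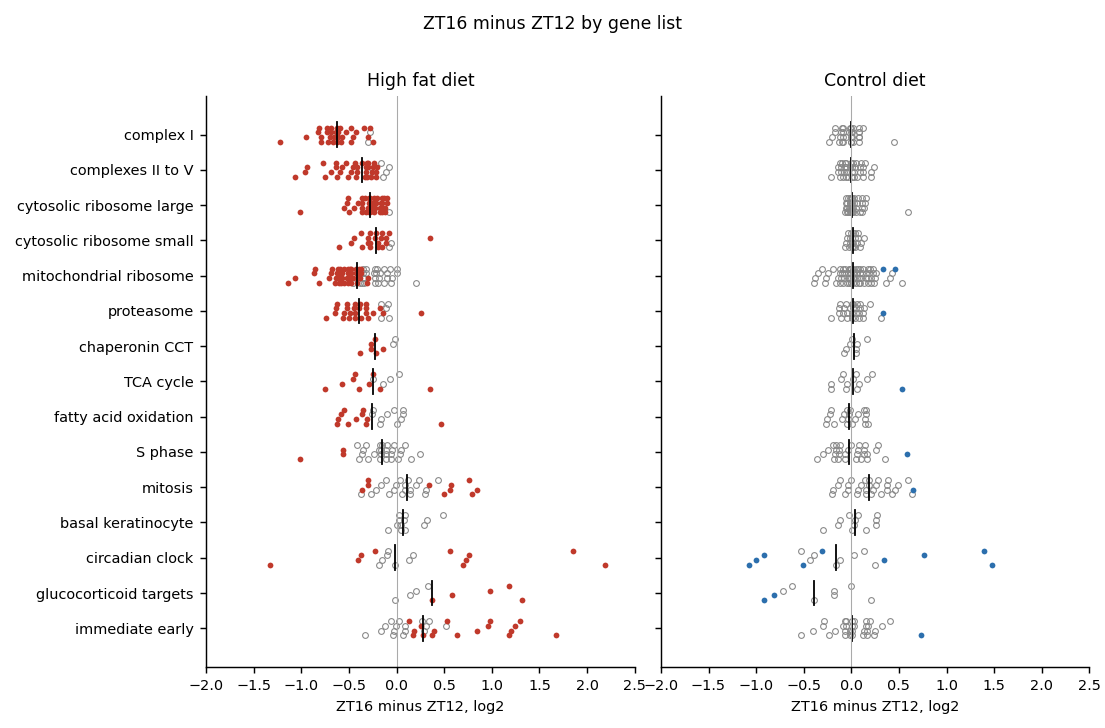
ZT16 minus ZT12 difference (log2) of each measured member of 15 gene lists on the high fat diet (left) and the control diet (right). Filled points passed an adjusted p under 0.05, open points did not, and black bars are medians. On the left the members of complex I lie between -1.22 and -0.25 with a median of -0.63, and on the right their median is -0.01.

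The fall started from a high level at ZT12. Relative to each gene's mean over the 12 groups, the median complex I gene stood at 0.41 at ZT12 and -0.16 at ZT16 on the high fat diet, and at -0.04 and -0.07 on the control diet. At ZT12 on the high fat diet the medians of complexes II to V, the cytosolic ribosome, the mitochondrial ribosome and the proteasome were 0.26, 0.22, 0.37 and 0.26, the highest of the 12 groups in each list. At ZT16 they were -0.13, -0.05, -0.06 and -0.13. Over all genes tested, high fat ZT12 had the highest of the 12 group means in 22.4%, and among the genes called lower in 67.9%. The latter genes were selected for a ZT12 mean above that of ZT16, which by itself raises that share. At ZT8, on 2 arrays, complex I stood at 0.15 on the high fat diet and -0.23 on the control diet. The immediate early genes ran the other way, with medians of -0.19 at ZT12 and 0.09 at ZT16 on the high fat diet and 0.04 and 0.00 on the control diet.

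**Figure D4:**
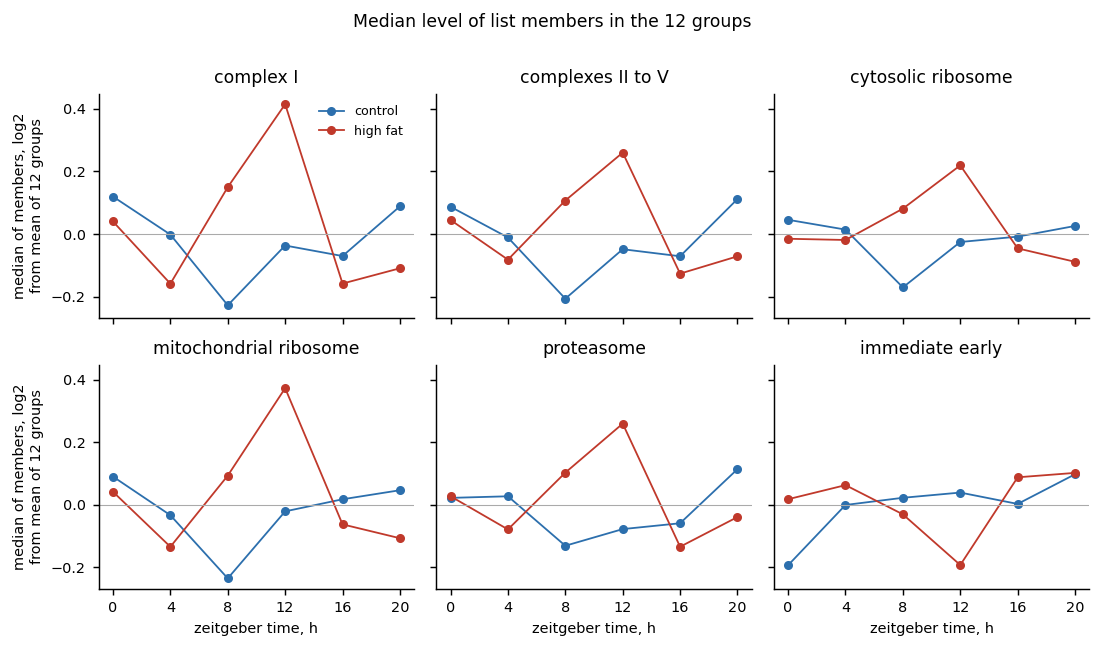
Median over the members of 6 gene lists of each group's mean (log2, relative to the gene's mean over the 12 groups) at 6 zeitgeber times, on the control diet (blue) and the high fat diet (red). At ZT12 the high fat group is the highest of the 12 in the first 5 lists, at 0.22 to 0.41, as it is in 22.4% of all genes tested.

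Among pathways of fuel use, 8 of 13 tricarboxylic acid cycle genes fell and 1 rose (69.2% called, against 24.2% of all genes). Of all genes 7.81% rose and 16.4% fell. Sdhb, Fh1 (fumarase) and Idh2 fell by 0.75 ± 0.11, 0.57 ± 0.12 and 0.39 ± 0.07 (a second Idh2 probe set did not pass), while Cs, citrate synthase, differed by 0.02 and did not pass. Of 21 fatty acid oxidation genes 10 fell and 1 rose (52.4% called). Eci1 and Echs1, matrix enzymes of the spiral, fell by 0.63 ± 0.10 and 0.58 ± 0.14, and Acaa1a of the peroxisome by 0.51 ± 0.08. Cpt1a, the gate to mitochondrial import, differed by -0.25 and did not pass. Of 15 glycolysis genes 3 rose and none fell: Hk2, which traps glucose in the cell, by 0.65 ± 0.14, Pfkp by 0.36 ± 0.06 and the glucose transporter gene Slc2a1 by 0.28 ± 0.09. The share of glycolysis genes called lay below the 24.2% of all genes, and the share that rose lay above the 7.81% of all genes. The Slc2a1 call was lost without ZT12 replicate 4 or ZT16 replicate 4 (adjusted p up to 0.0949). Hk2 and Slc2a1 differed by 0.50 and 0.31 on the control diet without passing, and Pfkp rose there by 0.27. Of 19 cholesterol genes 6 fell and 1 rose (36.8% called), among them Fdps (-0.75) and Mvd (-0.54). Of 13 fatty acid synthesis genes 1 rose and 1 fell (15.4% called, below the 24.2% of all genes). Of 11 fasting and PPAR target genes 2 rose and 1 fell (27.3% called, against 24.2% of all genes). The 1 that fell was Plin2, a lipid droplet coat gene, by 0.56 ± 0.10.

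Cell cycle genes were mixed. None of 30 S phase genes rose and 3 fell (10.0%), against 16.4% of all genes. Gmnn, which encodes the licensing inhibitor geminin, read 8.06, 7.99, 7.96 and 7.77 at ZT12 and 6.78, 6.75, 7.15 and 7.04 at ZT16 and fell by 1.02 ± 0.17 (SE, adjusted p = 6.46e-05). The count of S phase genes that fell was 1 without ZT12 replicate 1 or replicate 2. Pcna and Mcm5 differed by 0.04 and -0.42 and did not pass. The G1 cyclin gene Ccnd2 fell by 0.40 ± 0.11, and by 0.38 to 0.44 in 4 of its other probe sets.

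Of 30 mitosis genes 7 rose and 3 fell (33.3% called, against 24.2% of all genes). Of all genes 7.81% rose and 16.4% fell. Mki67, a marker of cycling cells, read 8.23, 7.88, 8.07 and 8.19 at ZT12 and 8.51, 8.97, 9.05 and 9.00 at ZT16, without overlap, and rose by 0.79 ± 0.13 (SE, adjusted p = 5.33e-05). Incenp and Top2a rose by 0.84 ± 0.13 and 0.58 ± 0.14, and on the control diet Incenp rose by 0.65 ± 0.14. The mitosis genes that rose numbered 4 without ZT12 replicate 3 or ZT16 replicate 3, and 3 with only the arrays compared or with the beta-actin measure as a covariate. Those that fell numbered 0 without ZT12 replicate 1, with only the arrays compared or with the medians of the tested genes subtracted. They numbered 1 without ZT12 replicate 3 or ZT16 replicate 1, 3 or 4, with probe sets averaged, with arrays quantile normalized again and with the beta-actin covariate. By the test of the difference between diets, 2 of 30 S phase genes passed, both licensing genes (6.67%, near the 7.97% of all genes). Of the 30 mitosis genes none passed that test.

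Among genes with established names whose ZT12 and ZT16 arrays did not overlap, the largest rises outside the clock were in genes of varied function. Lrrtm2, a leucine-rich repeat membrane protein gene, read 6.52, 7.34, 6.09 and 6.69 at ZT12 and 8.73, 9.20, 8.81 and 9.07 at ZT16. It rose by 2.29 ± 0.24 (SE, adjusted p = 1.82e-07), and on the control diet by 1.31 ± 0.26. Pmp22 and Abca12, a lipid transporter needed for the skin barrier, rose by 1.97 ± 0.38 and 1.88 ± 0.30. Sirt1, the NAD-dependent deacetylase, read 7.44, 7.54, 7.39 and 6.93 at ZT12 and 9.00, 9.21, 9.08 and 9.09 at ZT16 and rose by 1.77 ± 0.28 (adjusted p = 2.50e-05). The ubiquitin ligase gene Herc4 rose by 1.79 ± 0.21, and in 2 other probe sets by 1.39 and 1.14. Camk1g, Pxdc1, Azin1, an antizyme inhibitor, and Raly, an RNA-binding protein gene, rose by 1.81, 1.72, 1.67 and 1.62. Txnrd1, a thioredoxin reductase under NRF2, rose by 1.61 ± 0.22, and Phlda1 by 1.60 ± 0.36. Dio2, which activates thyroid hormone, rose by 1.62 ± 0.51 and its call was lost without ZT12 replicate 4 or ZT16 replicate 2 or 3 (adjusted p up to 0.0792).

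In the same set of genes the largest falls, apart from Dbp, were in Zfp87 and Zkscan3, both zinc finger genes, which fell by 1.46 ± 0.24 and dropped by 1.36 ± 0.18. Gpha2, a glycoprotein hormone subunit, read 8.45, 7.89, 8.18 and 8.06 at ZT12 and 7.06, 6.84, 6.60 and 6.90 at ZT16 and fell by 1.30 ± 0.15 (SE, adjusted p = 5.97e-07). Ebpl, a sterol isomerase relative, read 8.67, 8.79, 8.54 and 8.59 and then 7.30, 7.62, 7.20 and 7.44 and fell by 1.26 ± 0.13. Both stood higher at ZT12 on the high fat diet, at 8.15 and 8.65, than in the other 11 groups. So did 67.9% of all genes called lower, and both genes were picked for the size of their fall from ZT12. Rfesd, Zfyve21 and Skint10 fell as well, with differences of -1.29, -1.23 and -1.26, as did Klk8, an epidermal protease gene, with -1.22. B3galt6, Ptpn6, Polr3k and Zc3h14 completed the falls, with differences of -1.21, -1.19, -1.18 and -1.17, and on the control diet they differed by between 0.03 and 0.21 without passing. Other probe sets did not pass for Zkscan3, B3galt6 and Polr3k.

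**Figure D5:**
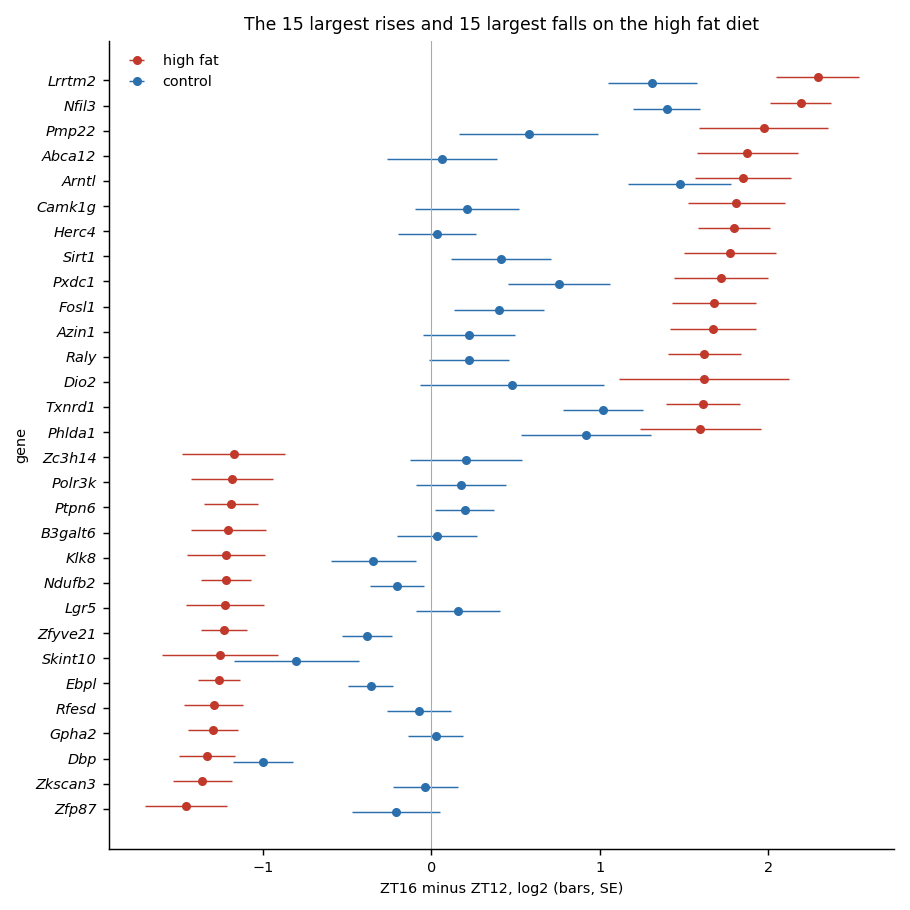
ZT16 minus ZT12 difference (log2, bars are SE) of the 15 largest rises and 15 largest falls on the high fat diet among genes with established names and no overlap of arrays (red), with the same genes on the control diet (blue). Lrrtm2, Nfil3, Arntl, Txnrd1 and Dbp also passed on the control diet, as did 2.46% of all genes and 3.61% of those called on the high fat diet. The other 25 did not pass there, which is not itself a test of a difference between the diets.

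Genes with the widest gaps between the diets were led by 1 that moved in opposite directions. Cd55b, a complement inhibitor gene, rose by 1.04 ± 0.22 on the high fat diet and fell by 1.35 on the control diet, a difference of 2.39 ± 0.33 (SE, limma adjusted p = 1.48e-04). After Fkbp5 came Abca12 at 1.81 ± 0.44, Zbtb16, Herc4 at 1.76 ± 0.32 and Megf11 at 1.76 ± 0.35. In the other direction Rpl14 differed by -1.60 ± 0.25, the MHC class II gene H2-Ab1 by -1.45 ± 0.28, and Ptpn6, a phosphatase of blood cells, by -1.38 ± 0.24. Lgr5, a Wnt receptor partner and stem cell marker, read 7.10, 6.94, 6.72 and 6.05 at ZT12 and 5.59, 5.42, 5.30 and 5.59 at ZT16 on the high fat diet. It fell by 1.23 ± 0.23 there and differed by 0.16 on the control diet, a gap of -1.38 ± 0.34 (adjusted p = 0.0122), but a second, dimmer probe set showed 0.01. Timm10b and Polr3k differed between the diets by -1.34 ± 0.28 and -1.36 ± 0.36, and the Polr3k call was lost without control ZT12 replicate 1 (adjusted p = 0.0558).

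The markers of the labelled cells were bright. None of 12 basal keratinocyte genes passed, and the mean level of the list ran from 11.3 to 11.6 over the ZT12 arrays and from 11.5 to 11.7 over those of ZT16. Krt5, the basal keratin, stood at 12.67 ± 0.02 and 12.69 ± 0.01 (SD, n = 4), and Col17a1, which anchors basal cells to the basement membrane, at 12.78 ± 0.05 and 12.83 ± 0.05. The suprabasal keratin genes Krt1 and Krt10 were also bright, at 12.58 ± 0.09 and 12.02 ± 0.06 at ZT12, and differed by -0.05 and -0.08 without passing. Of 17 suprabasal genes only Tgm3, a transglutaminase gene, passed, with a rise of 0.65 ± 0.17. Of 13 bulge genes, Lgr5, Krt15 and Gas6 fell and Nfatc1 rose, with differences of -1.23, -0.27, -0.20 and 0.68. Together 30.8% of the bulge genes passed, against 24.2% of all genes. Those that fell numbered 5 without ZT16 replicate 3, without the arrays of ZT8, with only the arrays compared or with the first residual component as a covariate.

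Of 11 stress keratins and alarmins 3 rose (27.3%, against 7.81% of all genes), with the largest rise in Krt16, a keratin of wounded and thickened skin. Krt16 read 7.77, 7.15, 7.50 and 7.48 at ZT12 and 7.62, 8.86, 9.78 and 9.03 at ZT16. One ZT16 array lay within the ZT12 range, and the rise was 1.35 ± 0.37 (SE, adjusted p = 0.00801, 0.0534 without ZT16 replicate 3). No gene of this list passed without ZT16 replicate 3, and 1 passed without ZT12 replicate 1 or 4 or ZT16 replicate 4.

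Markers of other cells changed in part, and of all genes 24.2% were called, 7.81% higher and 16.4% lower. The share called was 33.3% of Langerhans cell and MHC class II genes, 45.5% of leukocyte and 42.9% of endothelial genes. In melanocyte and muscle genes it was 25.0% each, about that of all genes. Of 9 Langerhans cell and MHC class II genes 3 fell and none rose, with the mean level of the list between 7.56 and 7.75 at ZT12 and between 7.34 and 7.53 at ZT16. H2-Ab1 read 9.01, 9.00, 9.00 and 8.43 and then 7.59, 8.23, 8.26 and 8.40, and H2-Aa fell by 0.65 ± 0.10, although another H2-Aa probe set rose by 1.36. Cd207, the defining marker of Langerhans cells, was dim at 5.89 ± 0.12 and 5.67 ± 0.22. Of 11 leukocyte genes 4 fell and 1 rose, with list means of 6.46 to 6.69 and 6.33 to 6.55. Tyrobp, a signalling adaptor of myeloid cells, fell by 0.90 ± 0.17, and Cd3e, of T cells, by 0.59 ± 0.17 (on the control diet by 0.96). Of 8 melanocyte genes 2 rose. Pmel, of the pigment fibres, rose by 1.31 ± 0.17 and Sox10 by 0.23 ± 0.05, while Dct, Tyr and Tyrp1 stood between 5.21 and 5.59 at both times and did not pass. None of 11 fibroblast, 11 hair matrix, 4 adipocyte and 2 Schwann cell genes passed. Of 7 endothelial genes 1 rose and 2 fell, and of 8 muscle genes 2 fell, including Acta2 by 0.50 ± 0.10 (another probe set did not pass). Whether these cells contribute to the other results was not tested.

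Stress pathways split within themselves, and of all genes 7.81% rose and 16.4% fell. Of 22 genes for endoplasmic reticulum folding and its stress response 5 rose and 6 fell. Ern1, the sensor kinase IRE1, rose by 1.35 ± 0.18 (SE, adjusted p = 3.29e-06; its 4 other probe sets did not pass) and Hspa5, the chaperone BiP, by 0.54 ± 0.14, while the disulfide isomerase genes Pdia4 and Pdia6 fell by 0.67 ± 0.11 and 0.59 ± 0.09. Of 15 heat shock genes 4 rose and 3 fell. Dnaja1 rose by 0.45 ± 0.08 and Hspe1, the mitochondrial co-chaperonin, fell by 0.53 ± 0.06. The heat shock genes that rose numbered 2 without ZT12 replicate 2 or 3 or ZT16 replicate 2 or 4. Of 19 antioxidant genes 3 rose and 6 fell: Txnrd1 and Nfe2l2, the gene for NRF2, were higher (the latter by 0.50 ± 0.12), and Sod1 and Prdx1 fell by 0.50 ± 0.10 and 0.43 ± 0.06. Of 15 p53 and growth arrest genes 5 rose and 2 fell, with Mdm2 at 0.68, Cdkn1a at 0.27 and Ccng1 at -0.61, and 3 rose without ZT12 replicate 4. With the medians of the tested genes subtracted and with quantile normalization, 9 and 8 of the 15 rose. With the beta-actin measure as a covariate, 9 S phase genes fell (3 without it), as did 5 Wnt genes (3), 5 tricarboxylic acid cycle genes (8), 2 clock genes (4) and 1 mitosis gene (3). Under it 3 mitosis genes rose (7 without it), as did 3 endoplasmic reticulum genes (5), 3 NF-kB genes (5), 1 heat shock gene (4) and 1 antioxidant gene (3). No ribosome biogenesis gene (4 without it) and no stress keratin or alarmin gene (3) rose under it.

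Splicing factor and Kmt2 methyltransferase genes rose more often than they fell, and translation factor genes fell more often. Of all genes 7.81% rose and 16.4% fell. Of 20 splicing factor genes 9 rose and 4 fell, among them Tra2b, Tra2a, Srsf2 and Srsf6, which rose by 0.73, 0.65, 0.60 and 0.43, and the kinase gene Clk1, by 0.42. The number that fell was 2 without ZT16 replicate 4. Hnrnpa1 and Hnrnpk differed by -0.08 and -0.13 and did not pass. Of 4 Kmt2 methyltransferase genes, which mark active chromatin, 3 rose: Kmt2b by 0.59 ± 0.12, Kmt2c by 0.52 ± 0.06 and Kmt2d by 0.48 ± 0.07. Of 15 translation factor genes 6 fell and 3 rose, with Eif3k and Eif3h at -0.74 and -0.48 and Eif5 at 0.61. The elongation factor gene Eef1a1 differed by 0.00 and did not pass.

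Among signalling genes, Irf1, an interferon response factor, rose by 1.08 ± 0.16 (SE, adjusted p = 1.78e-05) and on the control diet by 0.85 ± 0.18, while 3 of the other 9 interferon genes fell. Of 16 NF-kB and prostaglandin genes 5 rose and 1 fell (37.5% called, against 24.2% of all genes). The adhesion molecule gene Icam1 stood at 1.25, the inhibitor gene Tnfaip3 at 0.63 and Ptges, the prostaglandin E synthase gene, at 0.54. Of 17 Wnt genes 3 fell, Lgr5 and Wnt4 (-0.54) the most, and none rose. The falls made up 17.6% of the list, and of all genes 16.4% fell. With probe sets averaged 5 of them fell. Of 10 Notch genes 2 fell and 2 rose, and the targets Nrarp and Lfng fell by 0.71 ± 0.19 and 0.62 ± 0.15. Of 15 BMP and TGF-beta genes 2 rose and 2 fell (26.7% called, near the 24.2% of all genes). Among them Bmp2, a ligand that holds hair follicle stem cells at rest, rose by 0.75 ± 0.20. The cold-inducible RNA-binding protein gene Cirbp fell by 0.49 ± 0.12 and on the control diet by 0.59, and Rbm3 rose by 0.27 ± 0.08.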

How the data were processed

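RNA of epidermal stem cells (25 ng, amplified over 17 cycles) was hybridised to Affymetrix arrays, per the labels' protocols. The deposited values are log2 values that the authors made with RMA, per the submitters' processing notes, and array medians lay between 6.41 and 6.44. Of 45141 probe sets, 28898 had 1 gene symbol, 551 several and 15692 none, by the platform annotation. The probe set with the highest mean stood for each of 17097 genes, with no filter on low values. A cell-means model of the 12 groups over 41 arrays was fitted with limma 3.58.1 in R 4.3.3 (29 residual degrees of freedom), with Benjamini-Hochberg adjustment over all genes and a threshold of 0.05, and was tested on simulated data. Precision is limited by the number of arrays. RMA makes array distributions alike, so a shift of most genes cannot be seen.

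The comparison and the 50 gene lists (909 entries, 818 measured) were chosen with earlier results of these data known. Genes named are the 15 largest rises and 15 largest falls without overlap between groups, the 6 largest differences between diets in each direction, all clock genes, and from each list up to 6 members that passed and 2 that did not; predicted genes were passed over. Cd207, Tyr and Tyrp1 fall outside that rule and were added as defining markers after their values were seen. Alternatives changed the arrays fitted, probe set choice, dim genes (mean under 5), centring, weights, covariates and replicates.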

Additional observations from a re-analysis of the deposited data

Results flagged for a closer look

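Single arrays stood apart from the other 3 of their group in 14 of 338 gene and group pairs tested (4.14%), by a gap to the nearest array above Dixon's 95% critical value. Chance flags about 1 in 20 such groups. At ZT12 on the high fat diet these were, as log2 values, Cdkn1a in replicate 3 (11.54), Cs in replicate 1 (11.67), H2-Ab1 in replicate 4 (8.43), Ndufa6 in replicate 2 (8.99), Ndufs1 in replicate 4 (8.46), Nfe2l2 in replicate 4 (7.12) and Timm10b in replicate 3 (8.58). At ZT16 on the high fat diet these were, as log2 values, Clock in replicate 2 (8.39), Cox8a in replicate 4 (9.49), Dnaja1 in replicate 3 (10.22), Maff in replicate 2 (9.73), Mki67 in replicate 1 (8.51), Nr4a2 in replicate 2 (9.77) and Tgm3 in replicate 2 (10.33). 

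The ZT16 minus ZT12 difference differed between the diets in 1363 genes by the limma test of the difference itself, among them 73 of the 169 genes named in the text. The following values are the high fat difference minus the control difference on the log2 scale. It was above 0 in Cd55b (2.39), Fkbp5 (2.03), Abca12 (1.81), Zbtb16 (1.80), Herc4 (1.76), Megf11 (1.76), Camk1g (1.60), Azin1 (1.45), Raly (1.40), Tsc22d3 (1.40), Sirt1 (1.36), Pmel (1.34), Fosl1 (1.28), Errfi1 (1.17), Nr4a2 (1.13), Arc (1.01), Ern1 (1.00), Nr4a1 (0.96), Per2 (0.89), Ciart (0.69), Klf9 (0.60), Btg2 (0.57), Sgk1 (0.56), Kmt2c (0.43), Rora (0.42) and Kmt2d (0.35). It was below 0 in Rpl14 (-1.60), H2-Ab1 (-1.45), Ptpn6 (-1.38), Lgr5 (-1.38), Polr3k (-1.36), Timm10b (-1.34), Zkscan3 (-1.32), Gpha2 (-1.32), Zfp87 (-1.25), B3galt6 (-1.24), Rfesd (-1.22), Mrpl44 (-1.12), Mrpl40 (-1.02), Ndufb2 (-1.02), Atp5e (-0.97), Cox8a (-0.95), Uqcr10 (-0.92), Ebpl (-0.90), Ndufs6 (-0.89), Tyrobp (-0.89), Mrps33 (-0.87), Ndufa7 (-0.86), Gmnn (-0.85), Zfyve21 (-0.85), Sdhd (-0.84), H2-Aa (-0.83), Ndufb4 (-0.80), Pdia4 (-0.77), Ndufa11 (-0.77), Psmb5 (-0.73), Psma4 (-0.70), Ndufa6 (-0.69), Acta2 (-0.69), Acaa1a (-0.68), Sdhb (-0.67), Rpl13 (-0.66), Wnt4 (-0.60), Eif3k (-0.60), Pdia6 (-0.57), Rps19 (-0.54), Psmb1 (-0.51), Ccng1 (-0.49), Hspe1 (-0.49), Cct3 (-0.43), Eif3h (-0.40), Prdx1 (-0.38) and Cct6a (-0.33). Of these 73 genes, 50 passed whichever of the 15 arrays was left out, and 23 missed the threshold in at least 1 such fit.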

How the results depend on the processing

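The 4132 genes called on the high fat diet became 2669 with only the arrays compared and 6628 with each probe set on its own, and ranged from 3242 to 3934 when 1 array was left out. The control count of 421 became 235 and 668 under those settings, 1243 with array weights and 104 with the beta-actin measure as a covariate, and ranged from 64 to 401 when 1 array was left out. The count of genes that differed between the diets, 1363, became 2102 with each probe set on its own and 2241 with array weights, and ranged from 759 to 1801. Groups without overlap ranged from 4280 to 4858 genes, since 3 arrays overlap less easily than 4. With the replicate number as a block the counts were 3950, 265 and 1311. Same-numbered arrays correlated at 0.08, 0.02, -0.02 and -0.06 in their deviations, and differently numbered ones at between -0.20 and 0.19. So few arrays cannot settle whether the numbers pair the samples. When all probe sets of a gene were averaged, H2-Aa turned from a fall to a difference of 0.0472 (adjusted p = 0.808), since its probe sets oppose each other. Of 133 named genes called on the high fat diet, 107 passed under every alternative, and 126 passed whichever array was left out. Leaving out ZT8 and the beta-actin covariate were chosen after seeing the data. Probe sets near the top or bottom of the scale compress differences.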
